A study of Mus musculus with 20 samples.

Results

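The genes described here are 10 heat shock genes of the cytosol and the mitochondria, chosen by name: Hsf1, Hspa8, Hsph1, Hsp90aa1, Hsp90ab1, Dnaja1, Dnajb1, Hspd1, Hspe1 and Hspa9. They are 10 of the 46603 gene identifiers in the count table, and all 10 passed the filter on low counts in every fit. Hspa5, the HSP70 chaperone of the endoplasmic reticulum (ER), and 17 other ER chaperone genes served as the contrast.

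Heat shock proteins are chaperones that hold, fold or release unfolded polypeptides, and each compartment of the cell has its own set. In the cytosol HSP70 proteins (Hspa8) work with J-domain partners (Dnaja1, Dnajb1) and a nucleotide exchange factor (Hsph1) and pass clients to HSP90 (Hsp90aa1, Hsp90ab1), while in the mitochondrial matrix the HSP70 Hspa9 draws proteins in and the chaperonin of Hspd1 and its lid Hspe1 folds them. Unfolded protein in the cytosol frees the transcription factor HSF1 to act at heat shock elements, whereas unfolded protein in the ER is sensed by the separate unfolded protein response, whose best known target is Hspa5.

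Thapsigargin (TG) blocks the SERCA calcium pumps that fill the ER with calcium. RNA was sequenced from 20 mouse libraries, 2 for each of 10 groups. The 8 melanoma libraries came from the B16F10 line, kept in puromycin, with Ccdc101 knocked out or with a control genotype, each given TG (50 ng/mL) or its vehicle dimethyl sulfoxide (DMSO) for 8 hours. The 12 T cell libraries came from CD8 T cells that carry the OT-I receptor and Cas9 and were kept in IL-2, IL-7, IL-15 and puromycin. Control T cells were activated on plate-bound anti-CD3 (2.5 µg/mL, 24 hours) or left resting. In each state they were given TG (50 ng/mL) or vehicle for 8 hours, as in melanoma. Atp2a2 KO T cells, in which the gene of the SERCA2 pump was targeted, were labelled activated or resting. These KO cells had vehicle only, for 8 hours. The labels do not say whether the 2 libraries of a group came from separate cultures, so the p-values may measure technical spread only. Nor do they say whether a knockout is 1 clone or a pool, or in which part of the activation period TG was present.

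Depth was 9985311 to 17462770 counts per library. Levels are given as CPM, which are counts scaled to a common library total with a scaling factor for each library. Summed T cell markers held 4390 to 7990 CPM in T cell libraries and 3.1 to 7.7 CPM in melanoma libraries. Summed melanocyte markers held 10300 to 16200 CPM in melanoma and at most 7.81 CPM in T cells. Summed markers of other blood cells were at most 3.34 CPM in any library. Sgf29, the present name of Ccdc101, had 18.2 and 17.4 CPM in the KO against 27.9 and 26.4 CPM in control melanoma with vehicle, and 25.3 and 23.3 CPM against 33.8 and 33.2 CPM with TG. Atp2a2 had 453 and 452 CPM in activated KO T cells against 683 and 704 CPM in activated controls. Both targeted genes were thus lower in their knockouts with RNA still present. The libraries labelled resting Atp2a2 KO stood apart from their label. Their 10 activation genes (Ifng, Gzmb, Il2ra and others) summed to 36700 and 36500 CPM, near the 36200 and 36900 CPM of activated controls, against 15300 and 14800 CPM in resting controls. Their Atp2a2 level, 466 and 464 CPM, was below that of activated controls but above the 240 and 241 CPM of resting controls. They are called the libraries labelled resting Atp2a2 KO below. Without them the counts of heat shock genes called in the other T cell comparisons were the same.

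Promoters show which of these genes carry the elements named above. The table of RefSeq promoters used here (GRCm38.p6) was searched for 5 of the 10 members and for Hspa5. Hsf1, Hspa8, Hsp90aa1 and Hsp90ab1 had no entry, and Hspa9 was left out of the search. Each line holds the 250 bases before a RefSeq start, on the gene's strand, with the motif found in capitals. A heat shock element was searched as units of GAA and TTC with any 2 bases between them: GAANNTTC and TTCNNGAA for 2 units, GAANNTTCNNGAA and TTCNNGAANNTTC for 3, and TTCNNGAANNTTCNNGAA or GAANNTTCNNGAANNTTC for 4. The ER stress response element was searched as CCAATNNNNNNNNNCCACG. Both strands were read, and each longer heat shock element also contains the shorter ones. Hspe1 and Hsph1 are shown for their heat shock elements and Hspa5 for the ER element.
Hspe1, chr1:55087898-55088147, plus strand: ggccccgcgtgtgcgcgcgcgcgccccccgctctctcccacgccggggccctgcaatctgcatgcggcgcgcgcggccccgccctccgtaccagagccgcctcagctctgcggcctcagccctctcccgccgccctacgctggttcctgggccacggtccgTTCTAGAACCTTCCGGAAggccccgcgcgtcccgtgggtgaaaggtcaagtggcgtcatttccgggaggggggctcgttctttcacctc
Hsph1, chr5:149636337-149636586, minus strand: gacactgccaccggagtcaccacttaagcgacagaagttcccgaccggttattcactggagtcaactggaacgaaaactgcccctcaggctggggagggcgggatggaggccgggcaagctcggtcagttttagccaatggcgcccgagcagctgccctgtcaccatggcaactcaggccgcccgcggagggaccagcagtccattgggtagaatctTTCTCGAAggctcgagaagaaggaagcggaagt
Hspa5, chr2:34771840-34772089, plus strand: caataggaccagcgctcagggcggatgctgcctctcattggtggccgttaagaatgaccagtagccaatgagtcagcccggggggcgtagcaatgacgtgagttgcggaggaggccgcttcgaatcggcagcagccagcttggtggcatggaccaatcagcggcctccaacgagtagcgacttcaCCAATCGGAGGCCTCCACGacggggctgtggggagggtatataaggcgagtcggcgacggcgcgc

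The element of the Hspe1 promoter, at chr1:55088059-55088076, has 4 units, a form found in 8 of 32851 promoter windows of the RefSeq table (0.0244%), each of 250 bases before and 50 after a start. Hspd1 lies head to head with Hspe1 on the other strand, and the same bases stand before 1 of its 2 RefSeq starts. The Hsph1 promoter holds 2 units, TTCTCGAA, a form in 8.52% of promoters, and a 3-unit run, TTCTGGAAAGTTC, lies just after the start. A 3-unit run occurs in 0.603% of promoters. Dnaja1 holds 1 pair, GAAAATTC, a form in 7.86% of promoters, before only 1 of its RefSeq starts. No heat shock element was matched in the other windows of Dnaja1 or in the windows of Dnajb1 or Hspa5. The ER stress response element of Hspa5 occurs in 39 promoters (0.119%). These matches describe letters in a window and do not show binding.

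The first comparison asked what TG did to these genes in control melanoma cells. TG lowered all 6 cytosolic chaperone genes of the list, as well as Hspd1, Hspe1 and Hsf1, and raised Hspa9, while the 18 ER chaperone genes all rose. Of the 10 heat shock genes 9 fell and 1 rose, in a comparison where 71.8% of 12540 genes were called at an adjusted p below 0.05, 36.1% lower and 35.7% higher. The median log2 change was -0.85 over the 10 genes, -1.23 over the 6 cytosolic ones, 2.09 over the ER list and 0 over all genes tested. Here and below, p-values come from edgeR's quasi-likelihood test and were adjusted by Benjamini and Hochberg's method across every gene in the fit, and changes are log2 with their standard error (SE). In such bulk RNA fewer cells of a kind and less RNA per cell cannot be told apart.

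**Figure D1:**
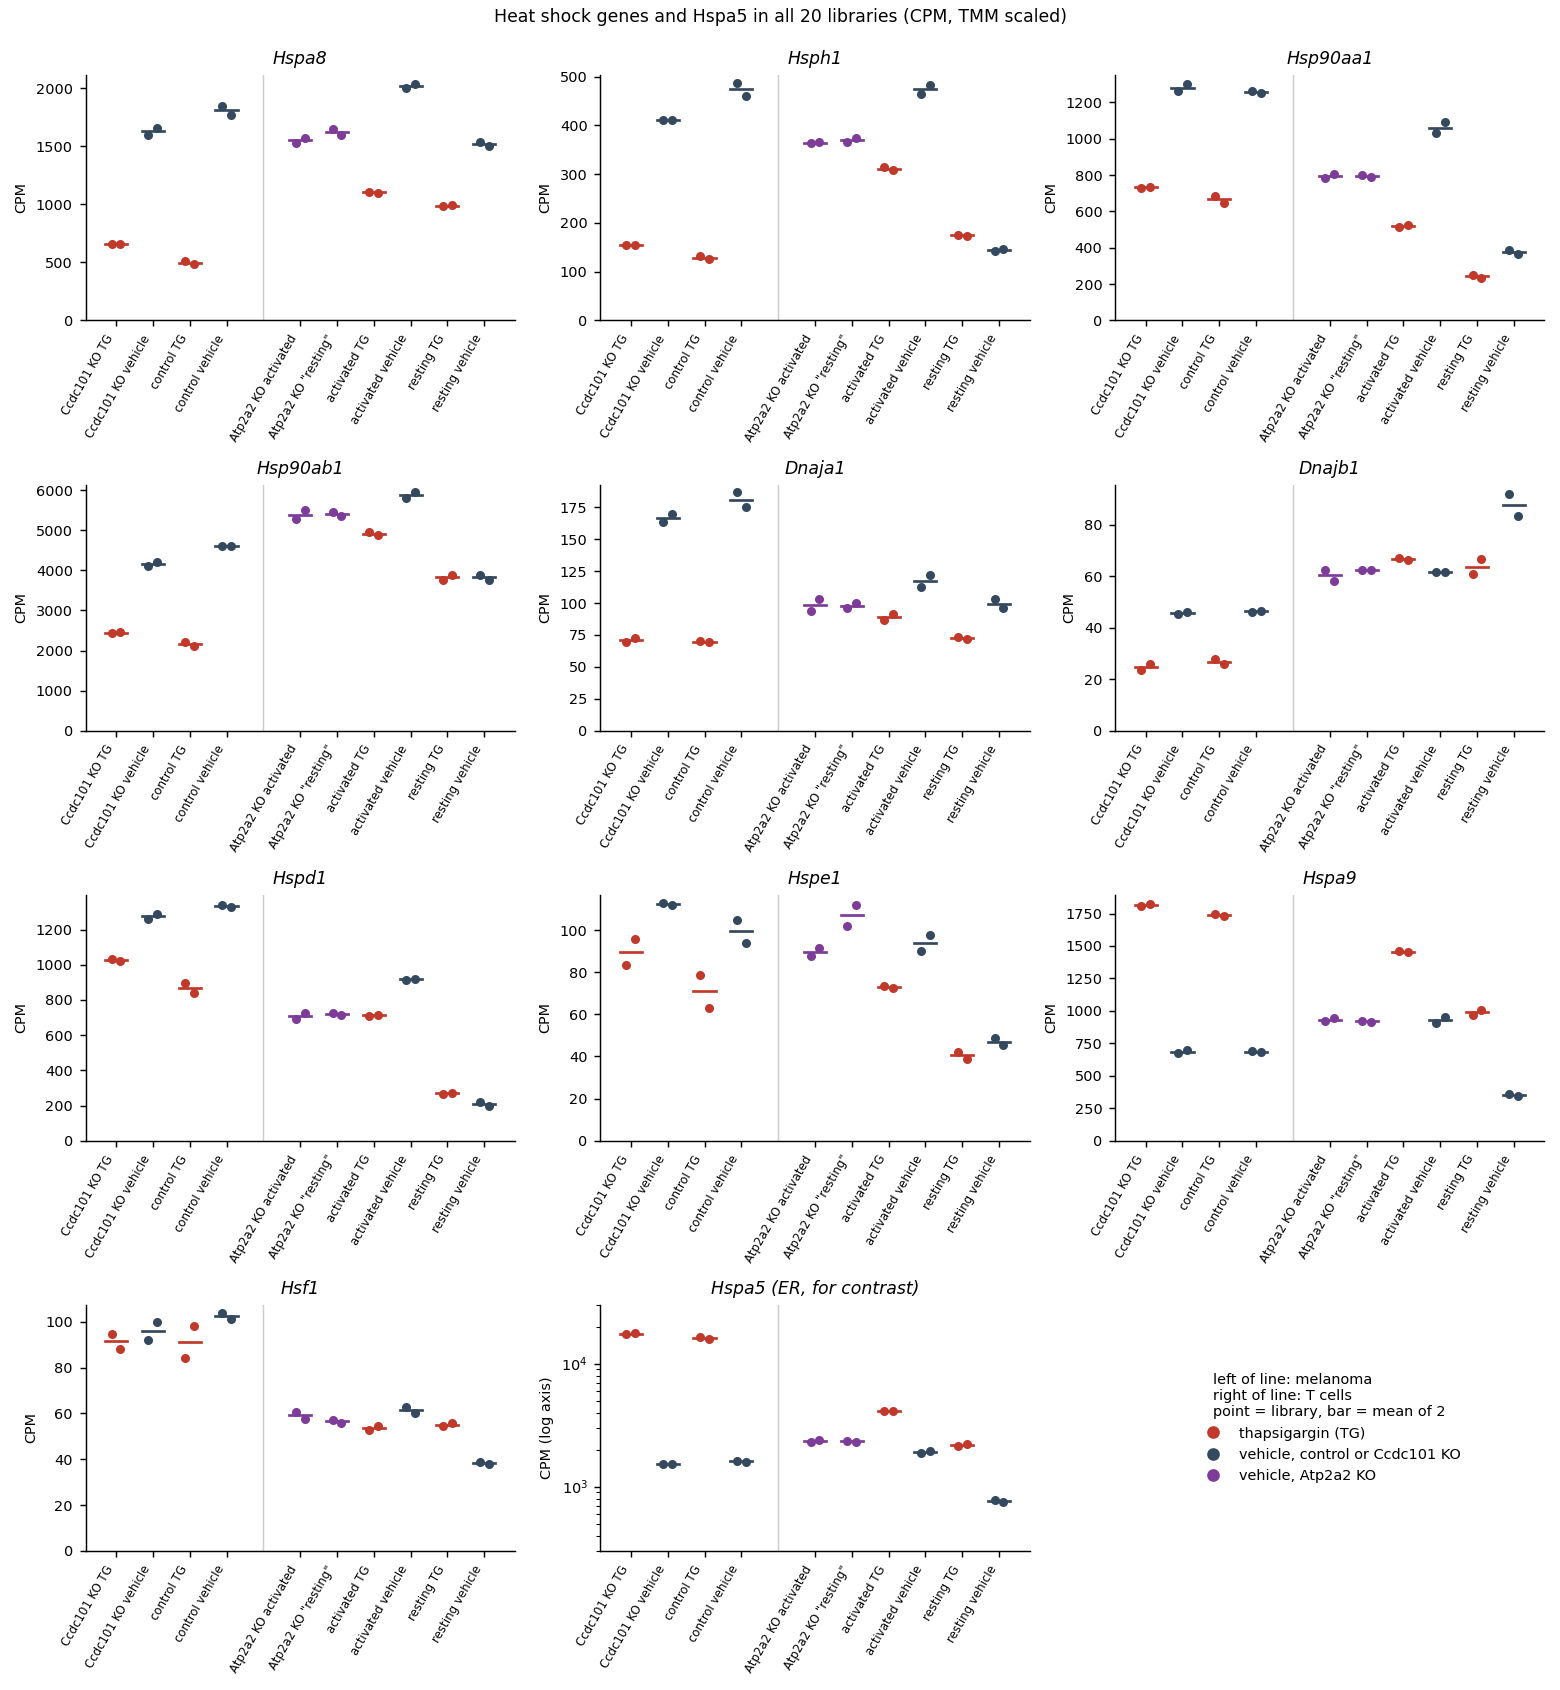
CPM of the 10 heat shock genes and of Hspa5 in all 20 libraries (points) with the mean of the 2 libraries of each group (bars); melanoma groups are left of the line and T cell groups right of it, and the axis is linear except for Hspa5 (log axis). In melanoma the TG points (red) lie below the vehicle points (dark) for Hspa8, Hsph1 and both Hsp90 genes and above them for Hspa9 and Hspa5.

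Hspa8, the constitutive cytosolic HSP70, had 510 and 486 CPM with TG against 1850 and 1770 CPM with vehicle in control melanoma, a log2 change of -1.86 ± 0.0301 (adjusted p = 5.6e-39). Hsph1, the HSP110 that exchanges the nucleotide of HSP70, had 133 and 125 CPM with TG against 486 and 461 CPM with vehicle (-1.87 ± 0.0388, adjusted p = 3.57e-35). For both genes the TG libraries lay far below the vehicle libraries, and 2.67% and 2.57% of all genes tested had a lower change than Hspa8 and Hsph1. Dnaja1, a type I J-domain partner of HSP70, had 70 and 69.2 CPM with TG against 187 and 175 CPM with vehicle (-1.37 ± 0.0477). Dnajb1, the type II partner that is a classic HSF1 target, had 27.8 and 25.8 CPM with TG against 46.3 and 46.5 CPM with vehicle (-0.79 ± 0.0732). The groups did not overlap for either J-domain gene. Here and elsewhere, such separation is weak evidence by itself with 2 libraries a group. Dnajb1 libraries also lay apart between Ccdc101 KO and control melanoma with vehicle, at a log2 change of 0 (adjusted p = 0.99).

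The HSP90 genes fell as well. Hsp90ab1, the constitutive form, had 2220 and 2120 CPM with TG against 4610 and 4620 CPM with vehicle (-1.08 ± 0.0242), and Hsp90aa1, the more inducible form, had 685 and 647 CPM with TG against 1260 and 1250 CPM with vehicle (-0.91 ± 0.0294). Together the 6 genes took 0.375% and 0.357% of all counts with TG against 0.907% and 0.904% with vehicle, and the 18 ER chaperone genes took 5.79% and 5.71% against 1.23% and 1.24%. Per kilobase of exon, the level of Hspa5 was 32.9 and 33.4 times that of Hspa8 with TG, against 0.889 and 0.92 times with vehicle. With the principal transcript as the length, the group means gave 21.3 times with TG against 0.579 times with vehicle.

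The mitochondrial genes split. Hspa9, the matrix HSP70, had 1750 and 1730 CPM with TG against 694 and 681 CPM with vehicle (1.35 ± 0.0274, adjusted p = 1.96e-35). Hspd1, the chaperonin HSP60, had 896 and 839 CPM with TG against 1340 and 1330 CPM with vehicle (-0.62 ± 0.0289), and its lid Hspe1 had 78.9 and 63 CPM with TG against 105 and 93.8 CPM with vehicle (-0.49 ± 0.124, adjusted p = 0.0147). Hspa9 was the 1 heat shock gene whose TG libraries lay above the vehicle libraries. Hsf1 itself had 84.3 and 98 CPM with TG against 104 and 101 CPM with vehicle (-0.16 ± 0.0582, adjusted p = 0.0153). That call was not stable: without TG replicate 1 the change was -0.06 (adjusted p = 0.4), without vehicle replicate 1 it was -0.13 (adjusted p = 0.115), and DESeq2 gave adjusted p = 0.0867.

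Hspa5 had 16500 and 16000 CPM with TG against 1620 and 1600 CPM with vehicle, 10.1 times as much (3.34 ± 0.022). The HSP90 of the ER, Hsp90b1, had 11600 and 11700 CPM with TG against 2030 and 2010 CPM with vehicle (2.53 ± 0.0221). Hyou1, the HSP110 of the ER, changed by 2.82 ± 0.0276, Dnajb9, an ER J-domain partner of Hspa5, by 4.06 ± 0.0633, and Sdf2l1, an ER chaperone component, by 3.12 ± 0.0393. Each ER gene thus moved against its cytosolic counterpart of the same family: Hspa5 against Hspa8, Hsp90b1 against Hsp90ab1 and Hyou1 against Hsph1. Per kilobase the level of Hsp90b1 was 3.89 and 4.09 times that of Hsp90ab1 with TG, against 0.327 and 0.323 times with vehicle.

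The partners of these chaperones in control melanoma mostly followed the same divide, with exceptions among the cochaperones and the mitochondrial genes. Of 19 cochaperones of HSP70 and HSP90, 14 fell and 3 rose, with a median of -0.45. Fkbp4, an immunophilin of the HSP90 complex, had 378 and 384 CPM with TG against 943 and 998 CPM with vehicle (-1.34 ± 0.0332); Bag2 changed by -1.13 ± 0.0709, Ahsa1, which speeds the HSP90 cycle, by -1.07 ± 0.0419, and St13 by -0.88 ± 0.0349. Of the 14 subunits of the TRiC chaperonin and of prefoldin, which fold actin and tubulin, 12 fell and 0 rose, led by Tcp1 with 409 and 398 CPM with TG against 713 and 685 CPM with vehicle (-0.79 ± 0.0315). Among 15 other mitochondrial chaperones and proteases 9 rose and 4 fell. The matrix protease Lonp1 had 734 and 750 CPM with TG against 237 and 243 CPM with vehicle (1.63 ± 0.0333), and Dnaja3, the matrix J-domain partner of Hspa9, had 193 and 183 CPM with TG against 77.4 and 79.9 CPM with vehicle (1.27 ± 0.0455). Both stood with Hspa9 and not with Hspd1 and Hspe1.

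Of 13 other tested HSP70, HSP110, HSP40 and small heat shock genes in control melanoma, 5 rose and 5 fell. Cryab, a small heat shock protein, had 107 and 110 CPM with TG against 280 and 278 CPM with vehicle (-1.36 ± 0.0403), while Dnajb2 had 65.8 and 70.4 CPM with TG against 22.1 and 21.8 CPM with vehicle (1.64 ± 0.0684). The strongly heat-inducible Hspa1a was listed at 0 in all 8 melanoma libraries and Hspa1b held 2.55 to 5.7 CPM there. These genes are near-identical copies of each other, so their counts are uncertain. Of the 3 tested genes of the HSF family and its regulators, Hsf2 fell (-0.29 ± 0.0779) and Hsbp1, which binds HSF1, rose (0.30 ± 0.0546). Without TG replicate 2 the list had 1 gene higher and 0 lower, so the call on Hsf2 was lost.

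**Figure D2:**
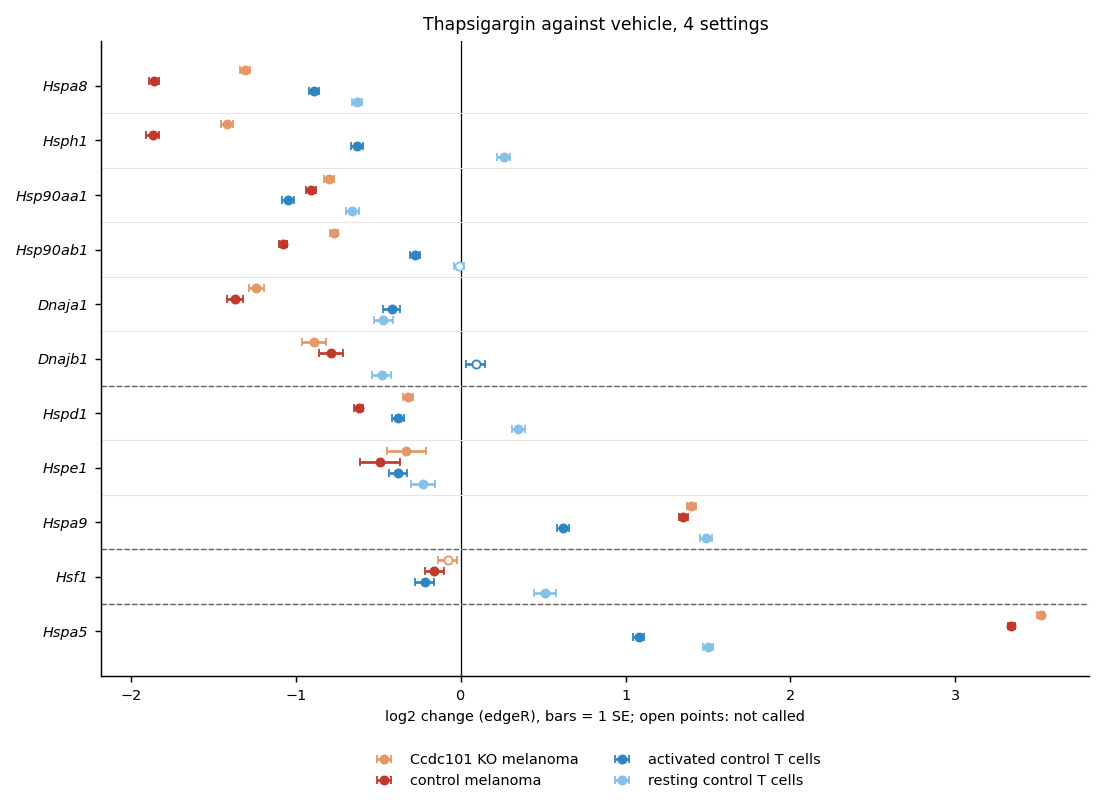
Log2 change with TG against vehicle (edgeR, bars 1 SE) for the 10 heat shock genes and Hspa5 in Ccdc101 KO melanoma, control melanoma, activated T cells and resting T cells; open points were not called. Hspa9 and Hspa5 lie right of 0 in all 4 settings, Hspa8, Hsp90aa1, Dnaja1 and Hspe1 lie left of 0 in all 4, and Hsph1, Hspd1 and Hsf1 lie on opposite sides in resting T cells and in the other settings.

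In Ccdc101 KO melanoma TG again lowered the cytosolic genes and raised Hspa9. Of the 10 genes 8 fell and 1 rose (70.3% of 12540 genes called, 36.3% lower and 34.1% higher; 38.2% of calls were higher with library totals as the only scaling, against 48.4%). Hsf1, with 94.6 and 88.2 CPM with TG against 92 and 99.8 CPM with vehicle, was not called (-0.08 ± 0.0585, adjusted p = 0.254). Hspa8 had 662 and 655 CPM with TG against 1600 and 1660 CPM with vehicle (-1.31 ± 0.0294). Hsph1 had 155 and 154 CPM with TG against 411 and 411 CPM with vehicle (-1.42 ± 0.0378). Hspa9 had 1810 and 1820 CPM with TG against 675 and 698 CPM with vehicle (1.40 ± 0.0275), and Hspa5 changed by 3.52 ± 0.0222. The other falls were -1.24 for Dnaja1, -0.89 for Dnajb1, -0.80 for Hsp90aa1, -0.77 for Hsp90ab1, -0.32 for Hspd1 and -0.33 for Hspe1. The call on Hspe1 (adjusted p = 0.0489) was lost under other settings, with adjusted p of 0.0621 under RLE scaling and 0.117 to 0.192 when 1 of 3 libraries was left out. All 18 ER chaperone genes rose, 11 of 19 cochaperones fell, and 10 of 14 TRiC and prefoldin genes fell (6 by DESeq2).

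The question whether the knockout altered these responses was put to the difference between the 2 TG effects. The fall was smaller in Ccdc101 KO than in control melanoma for 4 genes, and no gene of the 10 differed the other way (13.1% of genes called, 7.16% higher and 5.95% lower). The difference was 0.54 ± 0.0414 for Hspa8 (adjusted p = 7.63e-13), 0.46 ± 0.0542 for Hsph1, 0.31 ± 0.0338 for Hsp90ab1 and 0.29 ± 0.0406 for Hspd1. For Hspa9, the difference of 0.06 ± 0.0383 did not pass (adjusted p = 0.389). Of the ER list 13 of 18 genes also had a higher TG effect in the KO, 0.17 ± 0.0286 for Hspa5 and 0.29 ± 0.0296 for Hsp90b1, so for those genes the rise was larger. Cochaperones differed in 6 of 19 cases and TRiC and prefoldin genes in 7 of 14, all with the higher value in the KO, and without KO TG replicate 2 in 3 and 4 cases. DESeq2 called 702 genes in place of 1644 here, and 69.4% of its calls were higher, against 54.6% in edgeR and 37.5% with library totals as the only scaling.

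Split by treatment, the KO lowered Hspa8, Hsph1 and Hsp90ab1 by a little with vehicle and raised 6 of the 10 genes with TG. With vehicle the changes were -0.13 ± 0.0284 for Hspa8, -0.19 ± 0.0346 for Hsph1 and -0.13 ± 0.0238 for Hsp90ab1, and 3 of 10 genes called compares with 25.7% of all genes (13.3% lower). Of all calls 48.2% were higher there, against 34.7% with DESeq2 and 67.4% with library totals as the only scaling. With TG (31.5% called, 16.6% higher) they were 0.41 ± 0.0302 for Hspa8, 0.27 ± 0.0418 for Hsph1, 0.25 ± 0.029 for Hspd1, 0.18 ± 0.024 for Hsp90ab1, 0.15 ± 0.0297 for Hsp90aa1 and 0.07 ± 0.0267 for Hspa9. Even so, Hspa8 in KO cells with TG (662 and 655 CPM) lay far nearer to control cells with TG (510 and 486 CPM) than to any vehicle library. In the ER list 9 of 18 genes fell with vehicle and 11 rose with TG. The Hspa9 call was lost with DESeq2 (adjusted p = 0.0841) and whenever 1 library was left out. These small differences share their libraries with the effects above.

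In resting control T cells TG divided the list. 4 genes rose and 5 fell, against 34.1% of 13432 genes called higher and 35.2% called lower (69.2% in all). The median was -0.12 over the 10 genes and 0.01 over all genes tested. The counts lay near the shares of all genes, and whether the list differed from all genes was not tested. Hspa9 had 968 and 1010 CPM with TG against 358 and 341 CPM with vehicle (1.49 ± 0.0367, adjusted p = 5.93e-40), and Hspa5 had 2150 and 2210 CPM against 773 and 748 CPM (1.5 ± 0.0332). The matrix and ER HSP70 genes thus moved by like amounts there, both far outside the spread of their libraries. Of the ER list 15 genes rose and 1 fell. Lonp1 (1.28 ± 0.0369) and Dnaja3 (1.60 ± 0.0537) rose here as well.

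The cytosolic members that fell in resting T cells were Hspa8, Hsp90aa1, Dnaja1 and Dnajb1. Hspa8 had 983 and 997 CPM with TG against 1540 and 1500 CPM with vehicle (-0.63 ± 0.0326), and Hsp90aa1 had 251 and 234 CPM with TG against 390 and 368 CPM with vehicle (-0.66 ± 0.0393). Dnaja1 changed by -0.47 ± 0.0563 and Dnajb1 by -0.48 ± 0.0584. Hsph1 rose, with 176 and 174 CPM with TG against 143 and 146 CPM with vehicle (0.26 ± 0.0415), as did Hspd1 with 266 and 272 CPM against 218 and 199 CPM (0.35 ± 0.0402). Hsf1 had 54.4 and 55.7 CPM with TG against 38.7 and 38.1 CPM with vehicle (0.51 ± 0.0671). Hsp90ab1 held 3770 and 3880 CPM with TG and 3880 and 3770 CPM with vehicle, so its libraries overlapped (-0.01 ± 0.0307, adjusted p = 0.704); with library totals as the only scaling it was called higher (0.10), where the median of all genes was 0.12. Hspe1, with 42.2 and 38.9 CPM against 48.6 and 45.5 CPM, changed by -0.23 ± 0.0715 (adjusted p = 0.00397), a call lost without vehicle replicate 1 (adjusted p = 0.0841) or TG replicate 2 (0.0925).

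Other genes of these families also moved in resting T cells. Hspa4l, another HSP110, had 333 and 335 CPM with TG against 41.8 and 43.5 CPM with vehicle (2.96 ± 0.0489), while in control melanoma it had 27 and 23.8 CPM against 27.2 and 26.2 CPM. Dnajb2 rose by 1.60 ± 0.11 and Hsf2 by 1.30 ± 0.108. Among 19 cochaperones 9 fell and 4 rose. Of 14 TRiC and prefoldin genes 9 fell and 1 rose, against 2 and 4 with library totals as the only scaling. Fkbp5, an immunophilin of the HSP90 complex and a known glucocorticoid target, fell the most, to 81.6 and 72.2 CPM with TG against 337 and 318 CPM with vehicle (-2.10 ± 0.0468). Of the 10 activation genes 7 rose and 2 fell with TG in resting cells, and their sum was 9030 and 9000 CPM with TG against 15300 and 14800 CPM with vehicle. Their part in these results was not tested.

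In activated control T cells the response was nearer to that of melanoma in its directions. 8 genes fell and 1 rose (65% of 13432 genes called, 32.4% lower and 32.6% higher), with a median of -0.38. Hsp90aa1 fell the most of the 10, to 516 and 525 CPM with TG against 1030 and 1090 CPM with vehicle (-1.05 ± 0.0364, adjusted p = 2.22e-32). Hspa8 had 1110 and 1100 CPM with TG against 2000 and 2040 CPM with vehicle (-0.89 ± 0.0324), and Hsph1 had 314 and 308 CPM against 465 and 482 CPM (-0.63 ± 0.0357). In all 3 genes the groups lay well apart. Dnaja1 changed by -0.42 ± 0.051, Hspd1 by -0.38 ± 0.0355, Hspe1 by -0.38 ± 0.0543, Hsp90ab1 by -0.28 ± 0.0305 and Hsf1 by -0.22 ± 0.0582. Dnajb1, with 67.1 and 66.2 CPM with TG against 61.8 and 61.6 CPM with vehicle, was not called (0.09 ± 0.0582, adjusted p = 0.175).

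Hspa9 had 1460 and 1450 CPM with TG against 909 and 957 CPM with vehicle in activated T cells (0.62 ± 0.0346), and Hspa5 had 4150 and 4090 CPM against 1880 and 1940 CPM (1.08 ± 0.0322). Of the ER list 17 of 18 genes rose and none fell. Cochaperones fell in 14 of 19 cases and rose in 1; Fkbp5 changed by -1.98 ± 0.0485, Stip1, which bridges HSP70 and HSP90, by -0.91 ± 0.0366, and Ahsa1 by -0.85 ± 0.0425. TRiC and prefoldin genes fell in 11 of 14 cases. Lonp1 (1.18 ± 0.0343), Dnaja3 (1.15 ± 0.047) and Hscb, a J-domain protein of iron-sulfur cluster assembly (1.10 ± 0.0972), rose with Hspa9. Hspa4l rose again, to 183 and 187 CPM with TG against 70.3 and 70.7 CPM with vehicle (1.37 ± 0.045). Of the 10 activation genes 7 fell and 3 rose, with a sum of 24300 and 24200 CPM with TG against 36200 and 36900 CPM with vehicle, and their part was not tested.

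**Figure D3:**
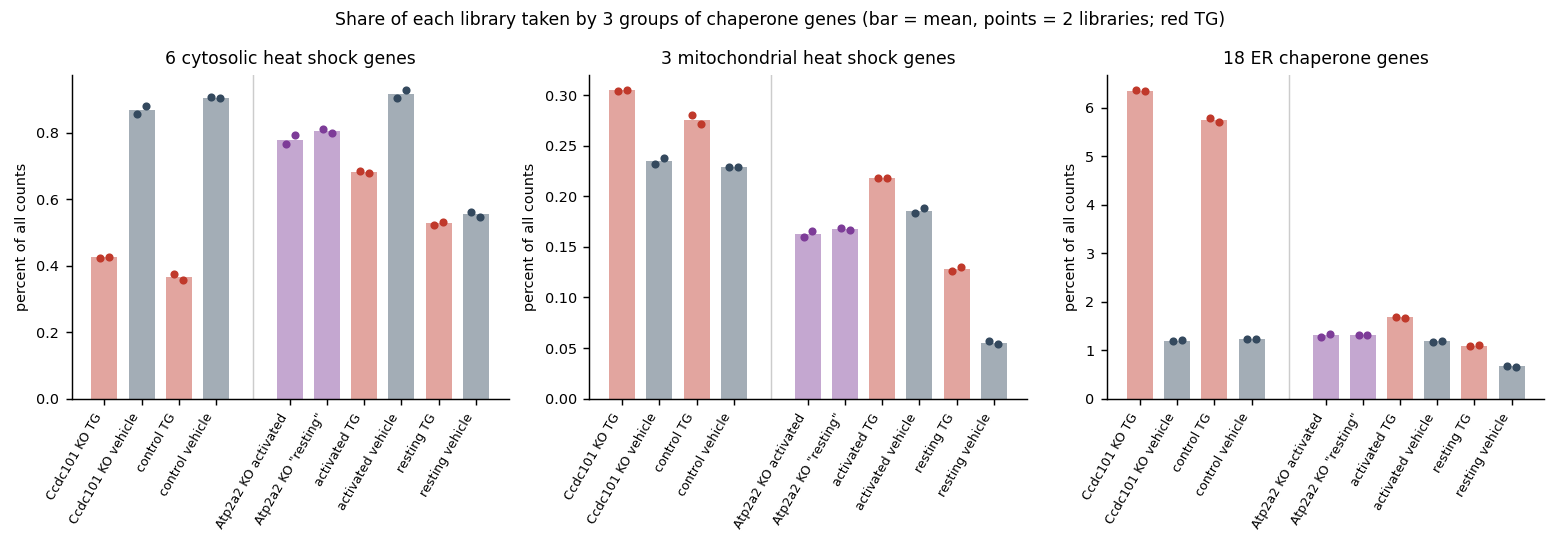
Percent of all counts taken by the 6 cytosolic members, the 3 mitochondrial members and the 18 ER chaperone genes in each group; bars are means and points the 2 libraries, and TG groups are red. In control melanoma the cytosolic share was 0.375% and 0.357% with TG against 0.907% and 0.904% with vehicle, and the ER share was 5.79% and 5.71% against 1.23% and 1.24%.

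The TG effect was then compared between cell states and cell types, by a test of the difference itself. Between activated and resting T cells it differed for 8 of the 10 genes, lower in 7 and higher in 1 (51.9% of genes called, 25.2% lower and 26.7% higher). The differences furthest from 0 were -0.89 ± 0.0547 for Hsph1, -0.87 ± 0.05 for Hspa9, -0.74 ± 0.0536 for Hspd1 and -0.72 ± 0.0889 for Hsf1. Hsph1, Hspd1 and Hsf1 are the genes that rose in resting cells and fell in activated ones. Dnajb1 differed the other way (0.57 ± 0.0825).

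Control melanoma set against resting T cells had the lower TG effect in 9 of 10 genes and the higher in none (47.4% of 14824 genes called, 23.8% lower; 35.9% of calls were higher with library totals as the only scaling, against 49.7%). The differences were -2.16 ± 0.0572 for Hsph1, -1.24 ± 0.0452 for Hspa8, -1.09 ± 0.0405 for Hsp90ab1, -0.99 ± 0.051 for Hspd1 and -0.93 ± 0.0755 for Dnaja1, while Hspa5 differed by 1.82 ± 0.0403. Against activated T cells the effect in melanoma was lower in 6 genes and higher in 2 (43.4% called, 21.8% lower and 21.6% higher). Hsph1 (-1.27 ± 0.0531), Hspa8 (-0.99 ± 0.045), Dnaja1 (-0.98 ± 0.0718), Dnajb1 (-0.90 ± 0.0943) and Hsp90ab1 (-0.83 ± 0.0403) fell more in melanoma, and Hspa9 rose more (0.70 ± 0.0453). Hsp90aa1, at 0.11 ± 0.0486 (adjusted p = 0.0489), lost its call under most other settings (adjusted p up to 0.889). Cell type and culture medium cannot be told apart in these differences.

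Activation alone, with vehicle, raised 9 of the 10 genes and lowered Dnajb1 (74.4% of 13432 genes called, 35.3% higher and 39.1% lower). Hspd1 rose the most, with 914 and 920 CPM in activated against 218 and 199 CPM in resting T cells (2.19 ± 0.0388, adjusted p = 8.37e-47), and 3.6% of genes had a higher change. Hsph1 had 465 and 482 CPM against 143 and 146 CPM (1.77 ± 0.0387), Hsp90aa1 had 1030 and 1090 CPM against 390 and 368 CPM (1.54 ± 0.0373), and Hspa9 had 909 and 957 CPM against 358 and 341 CPM (1.47 ± 0.0365). In each of these 4 genes every activated library was above every resting one, which by itself says little with 2 libraries a group. Hspe1 had 90.1 and 97.6 CPM in activated against 48.6 and 45.5 CPM in resting cells (1.04 ± 0.0598), and Hsf1 had 62.7 and 60 CPM against 38.7 and 38.1 CPM (0.73 ± 0.0633). Hsp90ab1 changed by 0.68 ± 0.0307, Hspa8 by 0.46 ± 0.0321 and Dnaja1 by 0.29 ± 0.0508. Dnajb1 had 61.8 and 61.6 CPM in activated against 92.2 and 83.3 CPM in resting cells (-0.46 ± 0.0563), so its resting libraries were the high ones.

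Genes of every chaperone list rose with activation. 16 of 19 cochaperones rose and 1 fell, 12 of 14 TRiC and prefoldin genes rose and 1 fell, 11 of 15 other mitochondrial genes rose and 1 fell, and 15 of 18 ER genes rose and 1 fell. The cyclophilin Ppid (1.77 ± 0.0455), Fkbp4 (1.69 ± 0.0389), Cct6a (1.55 ± 0.0366) and the protease Htra2 (1.68 ± 0.0699) led their lists, and Hsf2 had 61.7 and 63.4 CPM in activated against 10.2 and 10.1 CPM in resting cells (2.68 ± 0.0866). Hspa1a and Hspa1b, whose counts are uncertain, changed by 3.61 ± 0.603 and 3.42 ± 0.374 from low levels, with at most 3.11 and 8.34 CPM in any T cell library. Hspa5 changed by 1.39 ± 0.0331, so activation, unlike TG, moved Hspa5, Hspa9, Hspd1 and the cytosolic genes other than Dnajb1 in the same direction. Of the 5 fibroblast and endothelial markers Cdh5 was at 0 in every library and Pecam1, which resting T cells also make, carried most of the sum, 25.1 and 24.5 CPM in activated against 91.6 and 96.2 CPM in resting cells; its part was not tested. With TG in both states, activation raised 8 of the 10 genes (32% of genes called higher, 63.8% in all), while Dnajb1 (0.11 ± 0.0603) and Hsf1 (0.01 ± 0.0618) were not called.

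**Figure D4:**
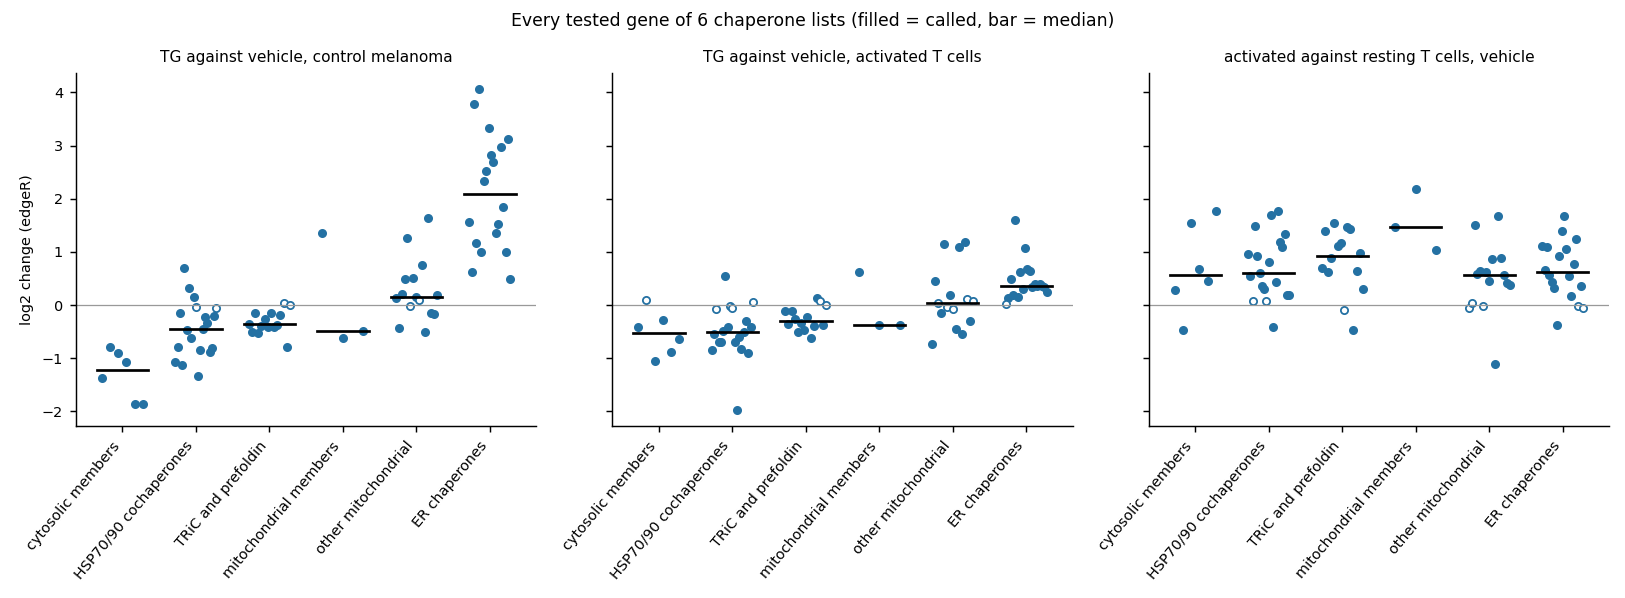
Log2 change (edgeR) of every tested gene of 6 chaperone lists in 3 comparisons, filled where called, with the median of each list as a bar; the x axis only spreads the points. With TG in control melanoma the medians are -1.23 for the cytosolic members, -0.45 for cochaperones and 2.09 for ER chaperones, and with activation every list has a median above 0.

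The Atp2a2 KO strikes by genotype at a pump of the kind that TG inhibits. With vehicle, activated KO cells had lower levels of 6 of the 10 genes and higher levels of none (37.1% of 13432 genes called, 19.6% lower). Hsp90aa1 had 782 and 805 CPM in KO against 1030 and 1090 CPM in control cells (-0.44 ± 0.0356), Hspa8 had 1530 and 1570 CPM against 2000 and 2040 CPM (-0.40 ± 0.032), and Hsph1 had 363 and 366 CPM against 465 and 482 CPM (-0.40 ± 0.035). The KO libraries lay below the control libraries in all 3. Hspd1 changed by -0.39 ± 0.0353, Dnaja1 by -0.28 ± 0.0491 and Hsp90ab1 by -0.14 ± 0.0305. Hspa5 rose, with 2310 and 2390 CPM in KO against 1880 and 1940 CPM in control cells (0.28 ± 0.0319), and 12 of 18 ER genes rose and 0 fell. Of the 10 activation genes 3 were higher and 6 lower in the KO, with a sum of 37300 and 38500 CPM in KO against 36200 and 36900 CPM in control cells. The 5 fibroblast and endothelial markers, mostly Pecam1, summed to 42.1 and 40.6 CPM in KO against 25.1 and 24.5 CPM in activated control and 91.6 and 96.2 CPM in resting control cells. The part of either list in these differences was not tested.

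Hspa9 was not called in the Atp2a2 KO: it had 919 and 944 CPM in KO against 909 and 957 CPM in control cells (-0.02 ± 0.0346, adjusted p = 0.665), whereas TG in the same activated cells changed it by 0.62 ± 0.0346. Dnajb1 (-0.05 ± 0.0576), Hspe1 (-0.09 ± 0.0513) and Hsf1 (-0.07 ± 0.0555) were not called either. 15 of 19 cochaperones fell, among them Ptges3, the p23 of the HSP90 complex (-0.59 ± 0.0471), and 11 of 14 TRiC and prefoldin genes fell, led by Pfdn2 (-0.38 ± 0.0521). The KO and TG effects share the activated control libraries, so their values stand side by side without a test of likeness. The log2 changes were -0.40 with KO and -0.89 with TG for Hspa8, -0.40 and -0.63 for Hsph1, -0.44 and -1.05 for Hsp90aa1, and 0.28 and 1.08 for Hspa5.

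**Figure D5:**
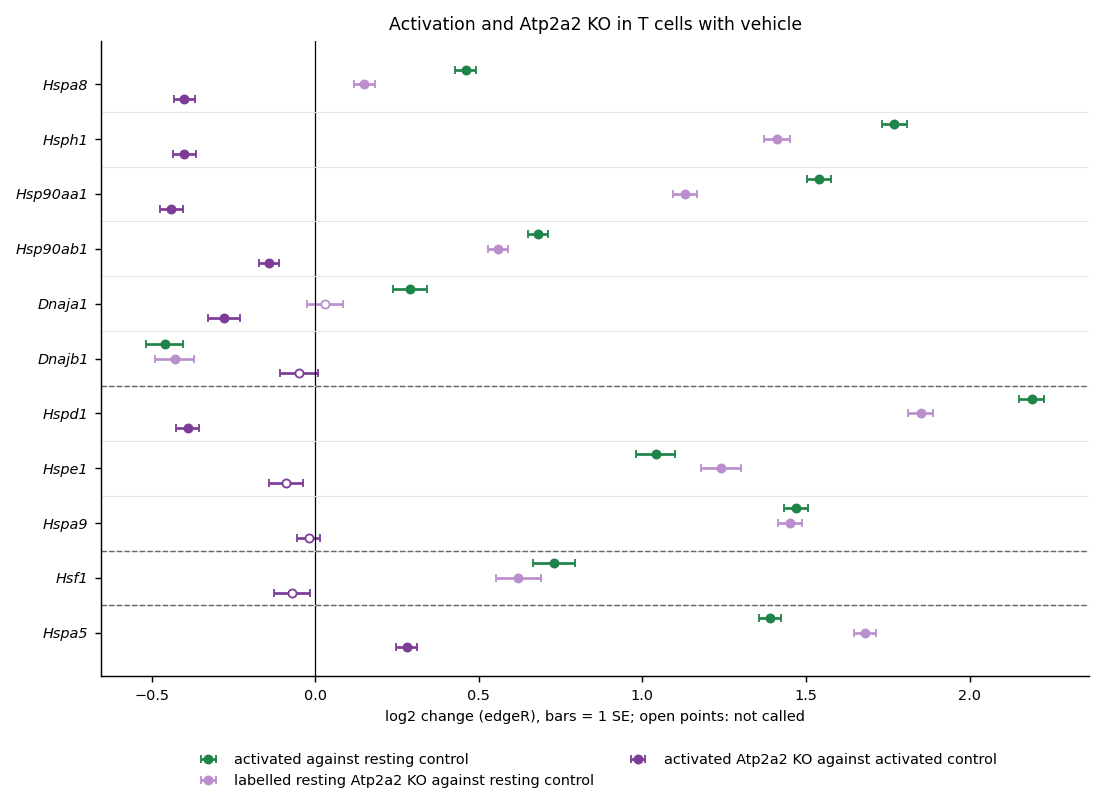
Log2 change (edgeR, bars 1 SE) of the 10 heat shock genes and Hspa5 in T cells with vehicle for activated against resting controls, libraries labelled resting Atp2a2 KO against resting controls, and activated Atp2a2 KO against activated controls; open points were not called. The activated KO points lie below 0 for all 10 genes and above 0 for Hspa5.

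The libraries labelled resting Atp2a2 KO had the heat shock levels of activated KO cells. Hspd1 had 725 and 714 CPM there, against 694 and 725 CPM in activated KO and 218 and 199 CPM in resting control cells, and Hsph1 had 366 and 374 CPM, against 363 and 366 CPM in activated KO and 143 and 146 CPM in resting control cells. Activated KO set against the labelled resting KO gave 1 called gene of the 10, lower (79 of 13432 genes called, 0.588%, with 0.119% lower and 0.469% higher, and 37 by DESeq2). That gene was Hspe1, with 87.6 and 91.7 CPM in activated KO and 102 and 112 CPM in the labelled resting KO (-0.28 ± 0.0534, adjusted p = 0.00232). DESeq2 gave no adjusted p for it, and the call was lost without labelled resting KO replicate 2 (adjusted p = 0.247) or activated KO replicate 1 (0.143). Set against resting controls, the labelled resting KO had 8 genes higher and Dnajb1 lower (69.6% of genes called, 33.7% higher and 35.9% lower). A genotype effect in resting cells cannot be read from these libraries, since activation state and genotype cannot be told apart in them. Set against activated controls instead, they had 6 genes lower and 1 higher (31.5% called, 16.6% lower), with -0.41 ± 0.0359 for Hsp90aa1, -0.35 ± 0.0357 for Hsph1 and -0.31 ± 0.0321 for Hspa8. The higher gene was Hspe1 (0.19 ± 0.0527, adjusted p = 0.00317), a call lost with DESeq2 (adjusted p = 0.113), with no filter (0.0678), without activated control replicate 1 (0.151) and without labelled resting KO replicate 2 (0.163). Among the lower genes Hsp90ab1 lost its call without activated control replicate 2 (0.0735) and without labelled resting KO replicate 2 (0.0594).

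Across all 10 groups Hsp90ab1 was the most abundant of the 10 genes per kilobase, at 724 ± 23.3 CPM per kb in control melanoma with TG (the lowest group mean) and 1960 ± 33.3 CPM per kb in activated control T cells with vehicle (the highest; SD, n = 2). That order held with the union of exons and with the principal transcript as the length. Per kilobase of exon, Hspa9 was 1.20 and 1.27 times Hspd1 with TG in control melanoma against 0.318 and 0.313 times with vehicle, and 2.23 and 2.29 times with TG in resting T cells against 1.01 and 1.05 times with vehicle. In activated T cells it was 1.26 and 1.24 times Hspd1 with TG against 0.61 and 0.637 times with vehicle. Hspa9 thus stood above Hspd1 with TG and below it with vehicle in melanoma and in activated control T cells, under both lengths. In activated Atp2a2 KO T cells the order turned with the length (0.812 and 0.799 times per kilobase of exon, and 1.04 times with the principal transcript).

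As a description, each gene's log2 group means were centred within melanoma and within T cells and correlated over the 10 groups, which share libraries and depth with one another. With the mean of the 10 genes Pearson's r was 0.982 for Hsph1, 0.943 for Hsp90ab1, 0.936 for Hsp90aa1, 0.898 for Hspe1, 0.896 for Hspd1, 0.771 for Hspa8 and 0.758 for Dnaja1. It was 0.7 for Hsf1, 0.274 for Dnajb1, -0.093 for Hspa9 and -0.351 for Hspa5. Each of the 10 genes is part of that mean, which by itself raises its r, while Hspa5 is not part of it. Hspa9 followed Hspa5 (r = 0.929) and not the chaperonin genes of its own compartment. Among 6737 genes with at least 10 CPM in every group, the genes most like the mean of the 10 were Acad9 (0.997), Usp14 (0.993), Bag2 (0.993) and Fbl (0.991).

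Some counts carry a limit of the annotation. Genes at least 95% identical over 100 bases or more exist for Hspa8 (6 genes), Hsp90aa1 (3), Dnaja1 (3), Hspd1 (3) and Hspe1 (1). Those with counts used here were 5 for Hspa8, holding 1.36% of the counts of gene and copies, 3 for Hsp90aa1 (3.86%), 3 for Dnaja1 (6.09%) and 1 for Hspd1 (6.3%). Dnaja1 (chr4:40722150-40737149, plus strand) shares exon bases with Smu1 and Gm6297 on the opposite strand, and Hspd1 (chr1:55077835-55088243, minus strand) and Hspe1 (chr1:55088132-55091307, plus strand) overlap by 112 exon bases. Whether counting used strand is not given in the sources used here. Values of these 3 genes may thus hold reads of their neighbours or lack reads of their own.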

How the data were processed

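RNA-seq counts per gene were used as deposited by the authors, raw and not normalized. Per the submitters' processing notes, reads were handled with STAR 2.6.0c and HTSeq on GRCm38 (mm10). Strand setting, annotation release and filters are not given in the sources used here. Gene names came from GENCODE M21, which named 46005 of 46603 identifiers. The other 598 held 0.0759% of counts. They kept their identifiers and were tested where they passed the filter on low counts. CPM are counts divided by the library total times the TMM scaling factor of that library. These factors ran from 0.913 to 1.133. Percentages of all counts use the library total alone.

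Groups followed the labels. Counts were tested with edgeR 4.0.16 (R 4.3.3; TMM scaling, filterByExpr, robust quasi-likelihood fit) in 1 fit for 8 melanoma libraries (12540 genes), 1 for 12 T cell libraries (13432) and 1 for all 20 (14824), with genes called at an adjusted p below 0.05 in 16 comparisons. Interactions were contrasts within a fit. The code was tested on simulated counts. Alternatives were DESeq2 1.42.0, RLE scaling, all genes with a count, only genes at 5 CPM or more in at least 2 libraries, only the groups compared, the replicate number as a block and each library left out. Library totals without a scaling factor were added after seeing the data. The heat shock genes and all lists were chosen with earlier results of these data known. Named are the heat shock genes, the targeted genes, 5 ER genes, up to 4 called genes per list with the largest changes in a comparison, and the 4 genes most like the mean of the 10. Hspa4l and Hspa1a in melanoma and the markers Pecam1 and Cdh5 are given outside that rule, chosen after their values were seen.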

Additional observations from a re-analysis of the deposited data

Results flagged for a closer look

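Each value here is a difference between 2 thapsigargin (TG) effects, on the log2 scale, whose own test in edgeR passed an adjusted p of 0.05.

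Set against control melanoma, Ccdc101 KO melanoma had a higher TG effect for Hspa8 (0.54), Hsph1 (0.46), Hsp90ab1 (0.31) and Hspd1 (0.29), all of which fell less in the KO, and for Hspa5 (0.17), which rose more.

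Set against resting T cells, activated T cells had a lower TG effect for Hsph1 (-0.89), Hspa9 (-0.87), Hspd1 (-0.74), Hsf1 (-0.72), Hspa5 (-0.42), Hsp90aa1 (-0.39), Hsp90ab1 (-0.26) and Hspa8 (-0.25), and a higher one for Dnajb1 (0.57). Hsph1, Hspd1 and Hsf1 rose in resting and fell in activated cells, while Hspa9 and Hspa5 rose in both.

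Set against resting T cells, control melanoma had a lower TG effect for Hsph1 (-2.16), Hspa8 (-1.24), Hsp90ab1 (-1.09), Hspd1 (-0.99), Dnaja1 (-0.93), Hsf1 (-0.69), Dnajb1 (-0.33), Hsp90aa1 (-0.27) and Hspa9 (-0.16), and a higher one for Hspa5 (1.82).

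Set against activated T cells, control melanoma had a lower TG effect for Hsph1 (-1.27), Hspa8 (-0.99), Dnaja1 (-0.98), Dnajb1 (-0.90), Hsp90ab1 (-0.83) and Hspd1 (-0.26), and a higher one for Hsp90aa1 (0.11), Hspa9 (0.70) and Hspa5 (2.23). The value for Hsp90aa1 lost its call under most other settings.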

How the results depend on the processing

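Of 2174 values of the 10 heat shock genes and Hspa5 under other settings, 2107 stayed on their side of the threshold (25 of them uncalled values near 0, between -0.12 and 0.05, with another sign), 42 lost the call and 24 gained it. Hsp90ab1 with TG in resting T cells, near 0 in the report, became 0.10 (adjusted p = 0.000614) with library totals as the only scaling, which moved the median of all genes to 0.12 there, to -0.14 for TG in Ccdc101 KO melanoma and to -0.17 for melanoma against resting T cells. The count of heat shock genes called stayed within 1.5 times in 15 of 16 comparisons. Between activated and labelled resting Atp2a2 KO it was 0 with DESeq2, which gave Hspe1 no adjusted p, and 0 to 1 with 1 library left out, where all genes called ranged over 15 to 191 and were 184 with no filter. DESeq2 called 1447 genes in place of 3218 for the Ccdc101 KO with vehicle, 2013 in place of 3956 with TG, 2977 in place of 4986 for the activated Atp2a2 KO, and 2557 in place of 4237 for the labelled resting KO against activated controls. Without Ccdc101 KO TG replicate 2 the KO with TG gave 2615 calls, and without KO vehicle replicate 1 the interaction gave 1090. Deviations of same-numbered libraries correlated at -0.0907 to 0.0684 in melanoma and -0.147 to 0.119 in T cells. No strong shift was thus shared by replicate number, but these values cannot show whether same-numbered libraries were paired. With the replicate block the heat shock genes called were 10 and 8 for TG in control and Ccdc101 KO melanoma, 9 and 9 in resting and activated T cells, 10 for activation and 6 for the activated Atp2a2 KO. With 2 libraries a group, several weak calls were lost when single libraries were left out, among them Hspe1 in 4 comparisons, Hsf1 with TG in control melanoma, Hspa9 in the Ccdc101 KO with TG and Hsp90aa1 in melanoma against activated T cells.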
